A study of Mus musculus with 6 samples.

Results

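The tricarboxylic acid (TCA) cycle enzymes described here were 9 genes of the 49315 counted in the RNA-seq of hematopoietic stem and progenitor cells, namely Cs, Idh3a, Idh3b, Ogdh, Suclg1, Sdha, Sdhb, Fh1 and Mdh2. They were taken from a written list by gene symbol and not by a cutoff on any measured value, though earlier results of these data were known. All 9 were found and passed the filter on low counts. In the mitochondrial matrix the cycle oxidizes acetyl-CoA made from pyruvate and fatty acids, and it passes electrons to the respiratory chain as NADH and through succinate dehydrogenase. Hematopoietic stem cells at rest are known for relying on glycolysis with little oxidative metabolism, and progenitors that leave rest make more use of mitochondria. The intermediates of the cycle also serve as precursors for synthesis and as cofactors or inhibitors of enzymes that modify chromatin.

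The libraries came from 3 populations sorted from lineage-depleted bone marrow, each from WT mice and from ING4-/- mice, which lack the tumor suppressor ING4, a subunit of a histone acetyltransferase complex. The populations were long-term hematopoietic stem cells (LT-HSC, gated as LSK CD48- CD34- CD150+), short-term hematopoietic stem cells (ST-HSC, LSK CD48- CD34+ CD150+) and multipotent progenitors (MPP, the CD48- CD34+ CD150- fraction of LSK cells), where LSK are the lineage-negative cells with Sca1 and cKit on their surface. Marrow of 8 to 10 mice was pooled for each genotype, and each population gave 1 library per genotype. The populations therefore stood in for replicates in the comparison of genotypes, 3 libraries against 3, and within a population no test was possible. The labels give neither age, sex nor strain, and no other allele or treatment is named for these libraries. The study's methods name C57BL/6 mice as WT controls and state an age in weeks for control mice, though none for the RNA-seq by itself. Since marrow was pooled, the spread between libraries was spread between populations and not between animals.

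The libraries of the genotypes differed in more than genotype. Total counts lay between 7839326 and 9363442 in WT and between 35596876 and 39192588 in ING4-/-. In WT, 22.8% to 33.7% of all counts equalled an even background over exons, estimated from 1915 olfactory and vomeronasal receptor genes that blood cells are not known to use, against at most 0.0263% in ING4-/-. Among the 31001 genes tested, the median log2 fold change between ING4-/- and WT was -6.85, and it was 0.02 over 9673 well-counted genes, those that reached 10 counts in all 6 libraries. Depth, background and genotype cannot be told apart in this design. Results for the enzymes are therefore given with the counts as deposited, with only the 9673 genes, and with the background subtracted from every count. Ing4 itself was counted 247 times in WT LT-HSCs, 162 times in WT ST-HSCs and 247 times in WT MPPs, of which the background estimate accounts for 120.3, 122 and 97.2 counts. The ING4-/- populations had 0, 24 and 76 Ing4 counts in the same order, and 1855 of its 5320 exonic bases are shared with other genes. Kit, Ly6a, Cd34 and Slamf1 of the sort were detected in every library. Cd48, whose protein the gates exclude, had 0 counts in ING4-/- LT-HSCs but 4300 in ING4-/- MPPs. In bulk RNA, fewer cells of a type and less RNA per cell cannot be told apart.

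Promoters are shown for Sdhb and Fh1, which had the largest log2 fold changes of the 9 enzymes between ING4-/- and WT with the counts as deposited, for Ogdh, which had the smallest, and for Idh3b, which shares a motif with Sdhb. The promoters run from 250 bases before the RefSeq start site to 50 bases after it (GRCm38.p6) and are printed 5′ to 3′ along the gene's strand. Of the 9 genes, 8 had a promoter in the RefSeq table, and Idh3a did not. Capitals mark matches, on either strand, to the E-box CACGTG bound by Myc, the NRF1 core GCGCATGCG and the GABPA core CCGGAAG, factors known for many mitochondrial genes.

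Sdhb, chr4:140961021-140961320, plus strand: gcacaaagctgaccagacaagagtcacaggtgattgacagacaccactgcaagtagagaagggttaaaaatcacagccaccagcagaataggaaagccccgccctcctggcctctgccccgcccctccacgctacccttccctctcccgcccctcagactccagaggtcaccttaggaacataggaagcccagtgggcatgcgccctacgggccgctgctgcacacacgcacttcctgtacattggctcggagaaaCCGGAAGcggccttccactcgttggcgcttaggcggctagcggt

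Fh1, chr1:175625586-175625885, minus strand: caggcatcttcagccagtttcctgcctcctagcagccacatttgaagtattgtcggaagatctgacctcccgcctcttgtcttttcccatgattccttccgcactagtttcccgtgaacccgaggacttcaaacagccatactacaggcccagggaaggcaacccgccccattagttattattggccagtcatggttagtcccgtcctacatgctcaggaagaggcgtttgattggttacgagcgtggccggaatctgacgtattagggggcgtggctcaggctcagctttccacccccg

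Idh3b, chr2:130284402-130284701, minus strand: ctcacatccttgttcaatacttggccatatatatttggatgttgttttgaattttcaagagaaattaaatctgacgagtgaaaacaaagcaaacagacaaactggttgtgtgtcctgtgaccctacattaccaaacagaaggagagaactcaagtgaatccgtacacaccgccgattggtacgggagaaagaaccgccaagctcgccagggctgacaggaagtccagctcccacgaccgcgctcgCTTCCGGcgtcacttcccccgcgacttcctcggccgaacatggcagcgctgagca

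Ogdh, 1 of its 6 start sites, chr11:6292308-6292607, plus strand: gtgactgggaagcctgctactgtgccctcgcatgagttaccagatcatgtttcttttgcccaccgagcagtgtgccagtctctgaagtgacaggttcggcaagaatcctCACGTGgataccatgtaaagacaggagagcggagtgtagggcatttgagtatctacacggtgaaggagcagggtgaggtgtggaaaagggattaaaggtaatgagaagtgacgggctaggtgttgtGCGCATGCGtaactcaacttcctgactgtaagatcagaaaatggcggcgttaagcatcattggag

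The GABPA core stood at position 7 after the start in Sdhb and at -5 in Idh3b, where it reads on the opposite strand, and it was found in 8.86% of the 32851 promoters in the table. The Ogdh promoter shown holds an E-box at -141 and an NRF1 core at -15. Of the other Ogdh start sites, 1 to 3 held neither, 4 held the E-box alone and 6 held both. These letters occurred in 7.15% and 1.75% of all promoters and, among the 8 enzymes with a promoter, in Ogdh alone. The shares are per promoter, so a gene with 6 start sites had more chances of a match. None of the 8 held the estrogen-related receptor element TCAAGGTCA, which 0.42% of all promoters held. The Fh1 promoter held none of the 4 motifs. The motifs do not overlap one another in these windows, and a match is a run of letters and not a measured site.

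The transcripts of 8 of the 9 enzymes were higher in each of the 3 ING4-/- libraries than in any WT library, and Ogdh was the exception. At an adjusted p under 0.05 and a log2 fold change over 1, 5 were called higher in ING4-/- cells (Cs, Idh3a, Suclg1, Sdhb and Fh1) and 0 lower, beside 7.98% of all tested genes called higher and 56.7% called lower. By the adjusted p alone, 8 of 9 were higher, against 9.6% of all genes, and genotypes did not overlap in this direction for 12% of all genes. The median log2 fold change of the 9 enzymes was 1.04. The size of these values moved with the filter on counts and with subtraction of the background. With the 9673 well-counted genes, the median was 0.53 and 2 enzymes were called (Sdhb and Fh1), where 8.3% of genes were called higher. On the scale of that fit 3 of 9 enzymes did not overlap between genotypes (Cs, Sdhb and Fh1), against 21.9% of these genes. With background subtracted, the median was 0.31 and 0 were called, where 5.64% were called higher. Sdhb and Fh1 still passed the adjusted p in that fit, at log2 fold changes under 1.

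Citrate synthase, encoded by Cs (chromosome 10, 128337832 to 128362479), condenses acetyl-CoA with oxaloacetate and opens the cycle. Its TMM-normalized level was 115, 133 and 153 CPM (normalized counts per megaread) in the WT populations, in the order LT-HSC, ST-HSC, MPP, and 258, 330.3 and 249.9 CPM in the same ING4-/- populations. Each ING4-/- library lay above the highest WT library, and the WT order from LT-HSCs up to MPPs did not appear in ING4-/-, where MPPs had the lowest level. The means were 134 ± 18.9 and 279.5 ± 44.2 CPM (SD, n = 3 each). The log2 fold change was 1.06 (SE 0.205) with an adjusted p of 0.00252 in the quasi-likelihood test of edgeR. With the well-counted genes it was 0.56 (edgeR adjusted p = 0.0688), and with background subtracted 0.31 (adjusted p = 0.242). The call was lost on the fold threshold without WT LT-HSCs (0.93) and without ING4-/- ST-HSCs (0.95). At least 90% identity over 100 or more bases, a cutoff set after lower and higher ones had been looked at, was found for copies of Cs alone. The coding copy, Csl, had at most 26 counts in any library.

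Idh3a (chromosome 9, 54586334 to 54604661) and Idh3b (chromosome 2, 130279309 to 130284547) encode the catalytic alpha subunit and the beta subunit of the NAD-dependent isocitrate dehydrogenase, which makes alpha-ketoglutarate. Idh3a was at 80.4, 114 and 108 CPM in WT, again in the order LT-HSC, ST-HSC, MPP, and at 141, 278 and 201 CPM in ING4-/-. The lowest ING4-/- library, LT-HSC, stood above the highest WT library, and ST-HSCs were highest in both genotypes. Its log2 fold change was 1.04 (SE 0.297, edgeR adjusted p = 0.0167). This became 0.53 with the well-counted genes (adjusted p = 0.198) and 0.38 with background subtracted (adjusted p = 0.355). The call was lost without WT LT-HSCs (0.84), WT MPPs (0.94) or ING4-/- ST-HSCs (0.79). Idh3b was at 145, 142 and 146 CPM in WT, the narrowest WT spread of the 9 enzymes at 144 ± 2.27 CPM. In ING4-/- it was at 338, 281 and 209 CPM, highest in LT-HSCs and lowest in MPPs. Its log2 fold change of 0.93 (SE 0.217, edgeR adjusted p = 0.00635) passed the adjusted p but not the fold threshold, which it passed without ING4-/- MPPs (1.12). The value for Idh3b fell to 0.43 with the well-counted genes (edgeR adjusted p = 0.202) and 0.19 with background subtracted (adjusted p = 0.539), and passed in neither. The subunits of this enzyme thus differed in which ING4-/- population was highest. The log2 ratio of Idh3a to Idh3b counts, which needs no scaling between libraries, differed by 0.093 between genotypes and its values overlapped (exact permutation test, two-sided p = 0.9).

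Ogdh (chromosome 11, 6291633 to 6356642), the E1 subunit of the alpha-ketoglutarate dehydrogenase complex that makes succinyl-CoA, was at 196, 207 and 266 CPM in WT and at 215, 298 and 369 CPM in ING4-/- LT-HSCs, ST-HSCs and MPPs. The level in ING4-/- LT-HSCs fell inside the WT range, and the order LT-HSC, ST-HSC, MPP was the same in both genotypes. The log2 fold change of 0.40 (SE 0.248) did not pass (edgeR adjusted p = 0.199). It was -0.10 with the well-counted genes and -0.34 with background subtracted (adjusted p = 0.764 and 0.281), so no direction can be given for Ogdh. Without ING4-/- LT-HSCs it was 0.61 (adjusted p = 0.041), and in no other fit with 1 library left out did it pass. It has the longest exonic sequence of the 9, with 5456 bases.

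Suclg1 (chromosome 6, 73248382 to 73276911) encodes the alpha subunit shared by the ATP- and GTP-forming succinyl-CoA ligases. It was at 113, 84.0 and 99.3 CPM in WT and at 121, 391 and 266 CPM in ING4-/- LT-HSCs, ST-HSCs and MPPs. WT and ING4-/- LT-HSCs had nearly the same level, whereas the other ING4-/- populations stood far above WT. Within LT-HSCs the log2 ratio between genotypes was 0.099, whereas it was 2.22 within ST-HSCs and 1.42 within MPPs, the widest range of the 9 enzymes. The log2 fold change was 1.39 with the largest SE of the 9, 0.415 (edgeR adjusted p = 0.0198), and with population as a block the adjusted p was 0.0512. It was 0.87 with the well-counted genes (edgeR adjusted p = 0.126) and 0.72 with background subtracted (adjusted p = 0.19), and called in neither. The call was also lost without WT ST-HSCs (1.22), WT MPPs (1.25) or ING4-/- ST-HSCs (1.00). Suclg1 and Ogdh act one after the other, and the log2 ratio of their counts was 0.87 higher in ING4-/-, with overlapping values (exact permutation p = 0.2). With background subtracted the difference was 0.95 and the genotypes did not overlap (exact permutation p = 0.1, the smallest possible).

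**Figure D1:**
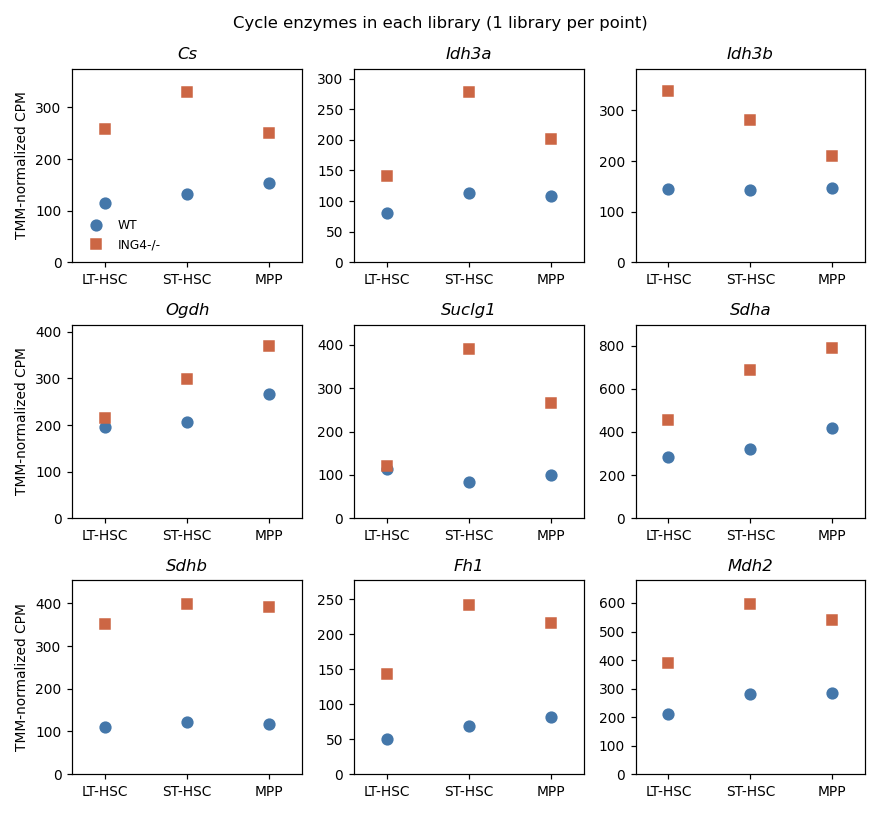
TMM-normalized level in CPM (y axis, linear from 0) of each of the 9 enzymes in LT-HSCs, ST-HSCs and MPPs (x axis), with blue circles for WT and orange squares for ING4-/-, 1 library per point. The squares lie above all circles in 8 panels, Ogdh overlaps, and the Suclg1 points of LT-HSCs nearly coincide at 113 and 121 CPM.

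Succinate dehydrogenase oxidizes succinate to fumarate and is also complex II of the respiratory chain. Sdha (chromosome 13, 74322254 to 74350280) encodes its flavoprotein and Sdhb (chromosome 4, 140961203 to 140979193) its iron-sulfur subunit. Sdha was at 282, 322 and 417 CPM in WT and at 455, 685 and 791 CPM in ING4-/- LT-HSCs, ST-HSCs and MPPs, increasing in this order in both genotypes. Its log2 fold change was 0.92 (SE 0.255, edgeR adjusted p = 0.0148), short of the fold threshold. With the well-counted genes it was 0.42 (adjusted p = 0.197), and with background subtracted 0.14 (adjusted p = 0.679). Sdha was called under 6 of the 22 alternative settings, among them the fit without ING4-/- LT-HSCs (1.14). Sdhb was at 109.8, 121 and 118 CPM in WT and at 351, 398 and 391 CPM in ING4-/-, with means of 116 ± 5.84 and 380.1 ± 25.2 CPM. Its ING4-/- libraries lay far above its WT libraries, and its populations were close to each other within each genotype. The log2 fold change of Sdhb was 1.71 (SE 0.161, edgeR adjusted p = 6.6e-04). It was 1.20 with the well-counted genes (adjusted p = 0.00253) and 0.94 with background subtracted (adjusted p = 0.00232). Sdhb passed the adjusted p under all 22 alternative settings and the full call under 19.

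The log2 fold changes of the succinate dehydrogenase subunits Sdhb and Sdha differed in size, though the test of their ratio did not pass. The log2 ratio of Sdhb to Sdha counts was -1.36, -1.41 and -1.82 in the WT populations, stem cells first, and -0.37, -0.78 and -1.02 in ING4-/-. The genotypes did not overlap, and the ratio was lowest in MPPs in both. The means were -1.53 ± 0.252 and -0.72 ± 0.326, a difference of 0.81 (0.83 with background subtracted). The exact permutation p was 0.1, two-sided, the smallest that 3 against 3 libraries can give, and 0.2 after adjustment over the 4 pairs of enzymes compared. In the fit with the GC trend removed the order of the log2 fold changes was reversed, with Sdha at 4.50 and Sdhb at 3.67.

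Fh1 (chromosome 1, 175600374 to 175625635), the fumarase that hydrates fumarate to malate, was at 49.7, 68.8 and 82.3 CPM in WT and at 143, 242 and 216 CPM in ING4-/- LT-HSCs, ST-HSCs and MPPs. The genotypes were well separated, and LT-HSCs had the lowest level in both. The log2 fold change was 1.58 (SE 0.297, edgeR adjusted p = 0.00221). It was 1.08 with the well-counted genes (adjusted p = 0.0217) and 0.93 with background subtracted (adjusted p = 0.0326). Fh1 was also the enzyme with the highest background share in a library, 16.3% of its WT LT-HSC count, where the lowest share over the 9 enzymes and 3 WT libraries was 1.67%. It passed the adjusted p under 20 of 22 alternative settings.

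Mdh2 (chromosome 5, 135778480 to 135790398), the mitochondrial malate dehydrogenase that regenerates oxaloacetate, was at 212, 280.5 and 284 CPM in WT and at 390.05, 598 and 539.7 CPM in ING4-/-. LT-HSCs were lowest in both genotypes and every ING4-/- library lay above WT. The log2 fold change was 0.98 (SE 0.221, edgeR adjusted p = 0.00553), just under the fold threshold. With the well-counted genes it was 0.47 (adjusted p = 0.126), and with background subtracted 0.19 (adjusted p = 0.511). Mdh2 was called under 6 of the 22 alternative settings, among them the fit without ING4-/- LT-HSCs (1.16). The log2 ratio of Fh1 to Mdh2 counts was -2.09, -2.03 and -1.79 in WT and -1.44, -1.31 and -1.32 in ING4-/-, without overlap. The difference was 0.61 (0.75 with background subtracted), with an exact permutation p of 0.1, again the smallest possible, and 0.2 adjusted over the 4 pairs.

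**Figure D2:**
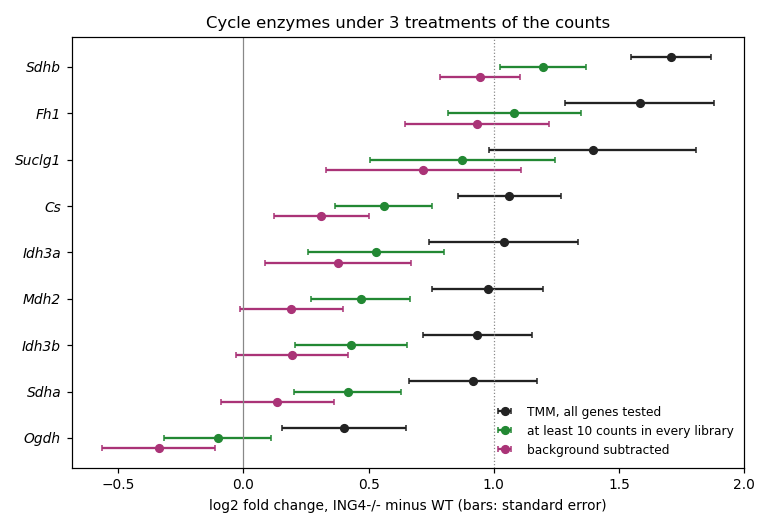
Log2 fold change of ING4-/- against WT (x axis) with its standard error (bars) for each enzyme (y axis) under TMM with all genes tested (black), with only the 9673 well-counted genes (green) and with background subtracted (purple). The dotted line is the fold threshold of 1, which 5 black, 2 green and 0 purple points pass, and Ogdh crosses 0.

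Among the 9 enzymes the log2 fold change was larger where the exonic sequence was shorter, with r = -0.61 and rho = -0.63, and r = -0.53 with background subtracted. This is a description over 9 genes that share the same libraries. Sdhb is the shortest with 2239 exonic bases and Ogdh the longest. Over all genes, the even background also scales with exonic length, and the part of length in the enzymes' values was not tested beyond the fits in which a length trend was removed. In the fit of the well-counted genes with the length trend removed, Sdhb was at 0.76 (edgeR adjusted p = 0.022) and Fh1 at 0.91 (adjusted p = 0.0571), and 0 of the 9 were called, beside 4.65% of genes called higher.

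Within populations, all 9 enzymes had a positive log2 ratio of ING4-/- to WT in each of the 3. This holds for the counts as deposited. With background subtracted, Ogdh was lower in ING4-/- in all 3 populations (35.2 against 51.5 CPM per kb of exon in LT-HSCs), Suclg1 (23.3 against 33.9) and Sdha (104.65 against 108) were lower in LT-HSCs, and Idh3b was lower in MPPs (52.5 against 58.1). The median ratio of the enzymes as deposited was 0.88 within LT-HSCs, 1.29 within ST-HSCs and 0.92 within MPPs. The same medians were 0.55, 0.59 and 0.37 over the 9673 genes on this scale. The summed level of the 9 enzymes was 1303, 1472 and 1674 CPM in the WT populations, stem cells first, and 2412, 3501 and 3233 CPM in ING4-/-. WT thus had its highest sum in MPPs and ING4-/- in ST-HSCs. As deposited, Sdhb had log2 ratios of 1.68, 1.72 and 1.73, a range of 0.0498. A smaller range was found for 0.217% of the 9673 genes. Mdh2 ranged over 0.21 and Ogdh over 0.39. Idh3b and Cs had their lowest ratio in MPPs, at 0.52 and 0.71, where Suclg1 and Ogdh had their lowest in LT-HSCs. With background subtracted the ratio of Sdhb varied more between populations. Sdhb was then at 71.8, 84.3 and 72.3 CPM per kb in WT and at 140, 149 and 150 in ING4-/- (LT-HSC, ST-HSC, MPP).

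**Figure D3:**
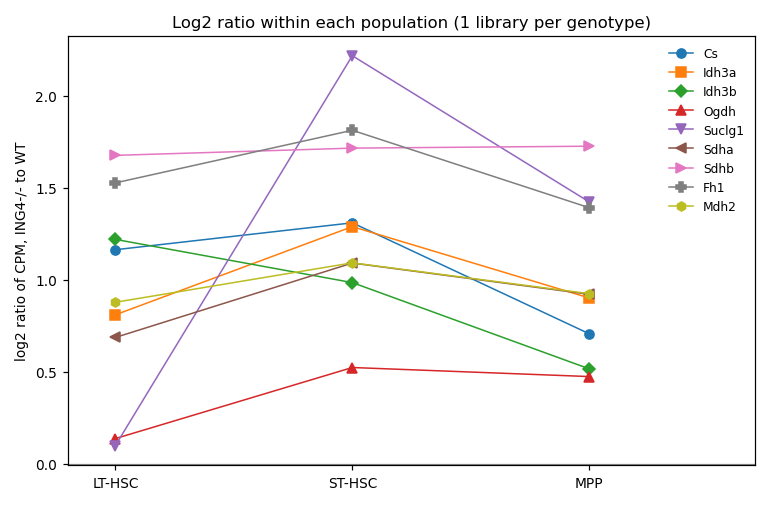
Log2 ratio of CPM of ING4-/- to WT (y axis) within LT-HSCs, ST-HSCs and MPPs (x axis), 1 line per enzyme and 1 library per genotype at each point, so no error is drawn. With the counts as deposited, Sdhb stays between 1.68 and 1.73, whereas Suclg1 goes from 0.099 in LT-HSCs to 2.22 in ST-HSCs.

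Differences between populations across both genotypes were tested in a fit with genotype and population, which has 2 libraries per population. No gene was called in any of the 3 contrasts (0% in each), so none of the 9 enzymes was. At an unadjusted p under 0.05, 616 genes (1.99%) differed between ST-HSCs and LT-HSCs, 187 (0.603%) between MPPs and ST-HSCs and 561 (1.81%) between MPPs and LT-HSCs. Among the enzymes these were 2 (Idh3a and Mdh2), 0 and 4 (Ogdh, Sdha, Fh1 and Mdh2). In the last contrast 1 enzyme (Sdha) was below this p with the well-counted genes, beside 7.26% of them, and 3 (Ogdh, Sdha and Fh1) with background subtracted, beside 3.62%. Sdha was 0.68 higher in MPPs than in LT-HSCs (SE 0.179, unadjusted p = 0.0116, adjusted p = 1 in edgeR). The median over the 9 enzymes was 0.39 for ST-HSCs against LT-HSCs, -0.066 for MPPs against ST-HSCs and 0.44 for MPPs against LT-HSCs, beside 0.043, -0.037 and 0.027 over all genes tested.

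Levels can be compared between enzymes only per length. On CPM per kb of exon, the WT order by mean was Sdha (87.7 ± 17.9), Mdh2 (72.7 ± 11.4), Sdhb (52.0 ± 2.61), Cs (47.3 ± 6.68), Idh3b (42.2 ± 0.665), Ogdh (40.9 ± 6.89), Suclg1 (21.4 ± 3.10), Idh3a (19.8 ± 3.49) and Fh1 (19.7 ± 4.83). Neighbours differed by more than the larger of their SDs between Mdh2 and Sdhb and between Ogdh and Suclg1, and at no other step of the WT order. In ING4-/- Sdhb was first at 169.75 ± 11.3, followed by Sdha (165.7 ± 44.3), Mdh2 (143 ± 30.1), Cs (98.8 ± 15.6), Idh3b (80.7 ± 18.9), Fh1 (59.1 ± 15.1), Suclg1 (56.2 ± 29.3), Ogdh (53.9 ± 14.1) and Idh3a (40.7 ± 13.5). There the steps from Mdh2 to Cs and from Idh3b to Fh1 exceeded the larger SD, and the others did not. Sdhb was below Sdha in all 3 WT libraries and above it in 2 of 3 ING4-/- libraries. Ogdh was above Suclg1 in all 3 WT libraries. The highest mean level was 4.44 times the lowest in WT and 4.17 times in ING4-/-.

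**Figure D4:**
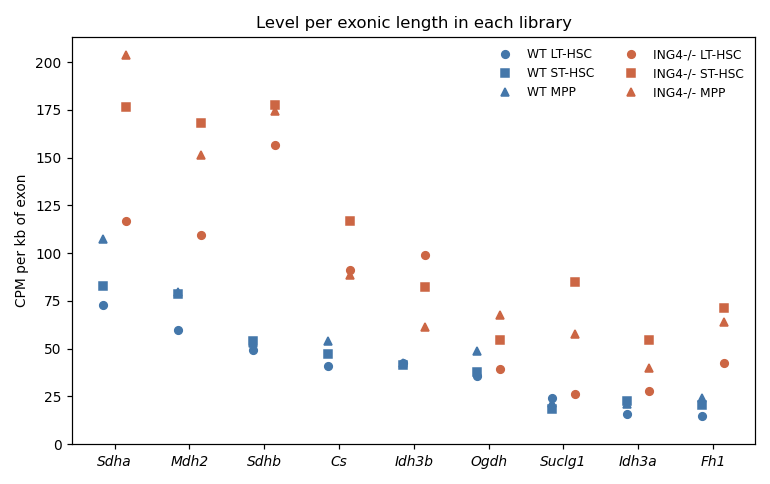
Level of each enzyme in CPM per kb of exon (y axis, linear from 0), with the enzymes on the x axis in the order of their WT means, blue for WT and orange for ING4-/-, and the symbol showing the population, 1 library per point. Sdhb comes after Sdha and Mdh2 in WT, at 52.0, and is highest in ING4-/-, at 169.75.

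Of the 9 remaining subunits and enzymes of the cycle, 4 were called higher and 0 lower, with a median log2 fold change of 0.74, which was 0.23 with the well-counted genes and 0.057 with background subtracted. The called genes were Sdhd, a membrane anchor of succinate dehydrogenase (1.64), Idh3g, the gamma subunit of isocitrate dehydrogenase (1.16), Sdhc, the other anchor (1.12), and Idh2, the mitochondrial NADP-dependent isocitrate dehydrogenase (1.10). With the well-counted genes Sdhd alone of these was called, and 0 were with background subtracted. With Sdhb, 3 of the 4 succinate dehydrogenase subunits were called with the counts as deposited, and Sdha was not. Sucla2, the ATP-forming beta subunit that pairs with Suclg1, was at 0.16 (edgeR adjusted p = 0.773). Sucla2 had 680, 554 and 829 counts in WT and 1098, 3227 and 3392 in ING4-/- LT-HSCs, ST-HSCs and MPPs. By CPM, ING4-/- LT-HSCs were again the lowest of their genotype, as for Suclg1 and for all other enzymes described here except Cs and Idh3b.

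Genes for pyruvate entry showed 5 of 13 called higher and 1 lower (median 0.59). Those higher were both subunits of the mitochondrial pyruvate carrier, Mpc1 (1.68) and Mpc2 (1.45), Pdhb, the beta subunit of pyruvate dehydrogenase E1 (1.24), and the inhibitory kinases Pdk3 (1.33) and Pdk1 (1.06). The carrier and the dehydrogenase feed the cycle, whereas the kinases restrain it. With background subtracted Mpc1 and Mpc2 were still called and Pdhb, Pdk3 and Pdk1 were not (edgeR adjusted p = 0.147, 0.124 and 0.104), and with the well-counted genes Mpc1 alone was called. Another such kinase, Pdk4, had 170, 157 and 94 counts in WT and 4, 0 and 0 in ING4-/-. The background estimate for Pdk4 was 79.4, 80.5 and 64.2 counts in WT, a large part of what was counted, and Pdk4 was still called lower with background subtracted (edgeR adjusted p = 0.00831).

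Among anaplerosis genes and mitochondrial carriers, 7 of 15 were called higher and 1 lower (median 1.10), but 0 were called higher with the well-counted genes or with background subtracted (medians 0.61 and 0.44). These included the dicarboxylate carrier Slc25a10 (1.50) and glutamate dehydrogenase Glud1 (1.44), while malic enzyme Me3 had 630, 529 and 516 counts in WT and 1, 0 and 1 in ING4-/-. Over the 14624 exonic bases of Me3, the background estimate was 331, 335 and 267 counts in WT. Of 7 genes for succinate dehydrogenase assembly and lipoylation, 4 were called higher and 0 lower (median 1.01), and 0 in both of the other fits. Lipt2, a lipoyl transferase, was at 3.24, Sdhaf1 at 1.71 and Sdhaf2, which attaches the flavin to Sdha, at 1.19. Lipt2 had only 5 counts in WT LT-HSCs, so it was not among the well-counted genes. The background estimate for Lipt2 in that library was 37.6 counts, above what was counted. For Sdhaf1 69.6% of the exonic bases are shared with other genes, so its counts are uncertain, and with population as a block it was no longer called (edgeR adjusted p = 0.139). Cytosolic counterparts of the cycle gave 2 of 6 higher, Got1 (1.24) and Mdh1 (1.10), both of the malate-aspartate shuttle, and 0 lower (median 0.58). Got1 was no longer called with population as a block (edgeR adjusted p = 0.0589), and 0 of the 6 were called with the well-counted genes or with background subtracted.

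The respiratory chain, which takes up the electrons of the cycle, had a larger share of called genes than the cycle. Of 36 complex I genes, 33 were called higher and 0 lower with a median of 1.81, led by Ndufb5 (2.32), Ndufa11 (2.25) and Ndufb11 (2.22). All 35 genes of complexes III to V were called higher with a median of 1.87, led by Atp5k (2.51) and Atp5e (2.38) of the ATP synthase and Uqcr10 (2.27) of complex III. These lists kept 21 and 23 calls with background subtracted, where the 9 cycle enzymes had 0. Their genes are short, with a median of 1414.5 and 1756 exonic bases against 3562 for the cycle enzymes, and the part of length in this was not tested. In glycolysis 8 of 16 were higher and 0 lower, with a median of 1.04, the same to 2 decimals as for the cycle enzymes. With the well-counted genes 1 glycolysis gene was called (Ldha), and 0 were with background subtracted. Its leading genes were the lactate dehydrogenases Ldha (1.68) and Ldhb (1.36) and Gapdh (1.50). Glycolysis and the cycle enzymes also had similar medians with background subtracted, 0.26 and 0.31.

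**Figure D5:**
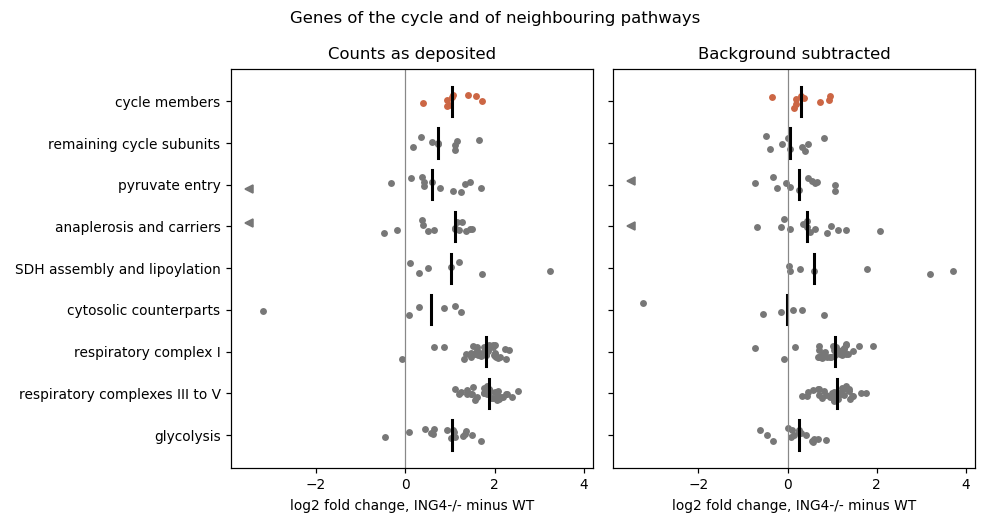
Log2 fold change of ING4-/- against WT (x axis) of every gene (points) of the 9 cycle enzymes (orange) and 8 neighbouring lists (grey), with black bars at the medians, for counts as deposited (left) and with background subtracted (right). Triangles mark genes beyond the axis, and the medians move from 1.04 to 0.31 for the cycle enzymes and from 1.81 to 1.07 for complex I.

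The mean profile of the 9 enzymes over the 6 libraries was matched most closely by Thop1, an oligopeptidase, at a root mean square difference of 0.0418 on the log2 CPM scale among 9664 genes compared. It was followed by Idh3g (0.0502), Ccng2 (0.0531), the proteasome subunit Psmc4 (0.0609) and the histone-binding protein Rbbp7 (0.062). Of the enzymes themselves, Mdh2 was nearest to the mean profile at 0.0906, with 13 other genes nearer, and Ogdh and Suclg1 were farthest at 0.386 and 0.381. Myc, which is known to raise metabolic genes, was at 0.87 (SE 0.19, edgeR adjusted p = 0.00463) and at 0.093 with background subtracted (adjusted p = 0.702).

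Markers of other blood cells also moved with genotype, and their part in the enzymes' values was not tested. Of 6 B cell markers, 5 were at 0 in all ING4-/- libraries (among them Ms4a1 and Pax5) and were called lower. The other, Cd79b, was called higher, with 256, 244 and 324 counts in WT and 3508, 2548 and 2191 in ING4-/- (LT-HSC, ST-HSC, MPP). Cd79b alone thus made up the summed B cell level in ING4-/-, 55.9 to 98.5 CPM, against 103 to 138 CPM in WT. With background subtracted, 3 of the 6 were still tested and 2 were called lower. Of 6 T and NK cell markers 3 were at 0 (sums 96.1 to 163 CPM in WT and 54.1 to 247 CPM in ING4-/-). Nkg7 and Klrb1c were counted in every library, with Nkg7 at 78, 451 and 926 counts in WT and 842, 8442 and 7728 in ING4-/-. As deposited 4 of the 6 were called lower, whereas with background subtracted 3 were still tested and 1 was called lower. Of 4 macrophage markers Csf1r was at 0 (31.5 to 39.1 CPM in WT and 0.0281 to 9.90 CPM in ING4-/-). Of 7 erythroid markers Alas2 was at 0, yet the sum was 20.8 to 38.9 CPM in WT and 76.4 to 154 CPM in ING4-/-. All 8 granulocyte markers and all 4 megakaryocyte markers were detected in ING4-/-, with sums of 118 to 354 CPM in WT and 322 to 574 CPM in ING4-/- for the former and 189 to 377 CPM and 232 to 862 CPM for the latter.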

How the data were processed

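Bulk RNA-seq of 6 libraries was used. The authors deposited raw counts, the reads assigned to each gene, without normalization. Libraries were prepared by a sequencing company, the build was mm10 per the submitters' processing notes, and the aligner, counter and strand setting are not given in the sources used here. Symbols and positions came from GENCODE of GRCm38, in which 49056 of 49315 identifiers were found. Populations numbered the libraries within a genotype (replicate 1 LT-HSC, 2 ST-HSC, 3 MPP).

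Genotypes were compared, 3 libraries against 3, with the quasi-likelihood F test of edgeR 4.0.16 under R 4.3.3. Genes were filtered with filterByExpr, scaled by TMM and adjusted by Benjamini-Hochberg over the 31001 tested. The SE was obtained by dividing the size of the log2 fold change by the root of F. A call needed both an adjusted p below 0.05 and a log2 fold change above 1 in size. Log2 ratios within a population used a prior count of 2. P-values measure the spread between these libraries only. A count of 0 allows up to 3 counts, and such floors cover counting error only. DESeq2 1.42.0 was an alternative, as were other normalizations and filters, removal of trends on length or GC content, thinning to 7839326 counts, and subtraction of the receptor-gene density times exonic length. Libraries of a population deviated together from their genotype means over 9673 genes (r = 0.143 for LT-HSC, 0.110 for ST-HSC and 0.121 for MPP), so populations paired them for the block. No libraries of a genotype were duplicates (chi-square per degree of freedom at least 14.1). The fits were tested on simulated data.

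The members, lists, motifs and tests were chosen with earlier results of these data known. Named genes were all 9 enzymes, Ing4, Myc, the called genes of the remaining-cycle and pyruvate lists, the 3 with the largest absolute change among called genes of each other list with 1 sign in the 3 populations, and the 5 nearest profiles. Sucla2 was named after its values were seen. Some single-gene results are not reported here.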

Additional observations from a re-analysis of the deposited data

Results flagged for a closer look

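For 5 of the 9 enzymes, the step between populations went one way in WT and the opposite way in ING4-/-. With 1 library per population and genotype the difference was not tested, and each value below is the ING4-/- step minus the WT step in log2 CPM of the counts as deposited. With background subtracted, Idh3b and Mdh2 no longer had the opposite steps given below, while those of Suclg1, Cs and Fh1 were still opposite.

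Suclg1 had such steps in all 3 contrasts. From LT-HSCs to ST-HSCs it changed by -0.42 in WT and by 1.70 in ING4-/-, a difference of 2.12. From ST-HSCs to MPPs the steps were 0.24 and -0.55, a difference of -0.79. From LT-HSCs to MPPs they were -0.18 and 1.14, a difference of 1.32.

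Cs had opposite steps from ST-HSCs to MPPs (difference -0.60) and from LT-HSCs to MPPs (difference -0.46), up in WT and down in ING4-/-. Idh3b had the same pattern, with differences of -0.47 and -0.70, though its WT steps of 0.044 and 0.012 were small. From ST-HSCs to MPPs, Fh1 differed by -0.42 and Mdh2 by -0.17, where the WT step of Mdh2 was 0.019.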

How the results depend on the processing

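All results below are for ING4-/- against WT. The main counts were 2475 genes higher and 17566 lower, 5 enzymes called and an enzyme median of 1.04. With DESeq2 size factors 1342 genes were higher, 2 enzymes were called and the median was 0.67, and with the DESeq2 test these were 1562, 2 and 0.69. With upper-quartile normalization they were 4556, 8 and 1.64. With protein-coding genes only they were 1148 (7489 lower), 2 and 0.69. The 2 enzymes in these fits were Sdhb and Fh1. With a minimum of 10 counts in all libraries 803 genes were higher and 936 lower, 2 enzymes were called and the median was 0.53, and with background subtracted these were 1109, 7592, 0 and 0.31. In alternatives chosen after seeing the data, the minimum with the length trend removed gave 450, 452, 0 and 0.36, and the minimum with background subtracted gave 321, 472, 0 and 0.22. Removing the length trend alone gave 9526 genes higher (30.7% of those tested), 9 enzymes called and a median of 3.86. Removing the GC trend gave 9050 (29.3%), 9 and 4.45, and the cause was not tested. Without a filter 8 enzymes were called, beside 6.14% of genes called higher. By the adjusted p alone 8 were higher, beside 9.6%, and after thinning 3 were called, beside 6.74%. Without both ST-HSC libraries 1540 genes were higher and 2 enzymes called, and without both MPP libraries 1625 and 3.

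Leaving out 1 library gave 2 to 7 enzymes called (2 without ING4-/- ST-HSCs, 3 without WT LT-HSCs or WT MPPs). Genes higher ran from 1705 to 2804, genes lower from 18189 to 20464 and the median from 0.91 to 1.16. Of 137 genes in the neighbouring lists 98 were higher and 2 lower, 90 to 101 and 2 to 3 without 1 library. They were 60 and 0 with the minimum, 46 higher with background subtracted, 22 and 0 with the minimum and length trend, and 31 and 0 with the minimum and background subtracted. With population as a block 4 enzymes were called, without Suclg1 (adjusted p = 0.0512), beside 6.45% of genes called higher. In the neighbouring lists the block ended the calls of Got1, Sdhaf1 and Sdhaf4 (adjusted p = 0.0589, 0.139 and 0.0514) and of no other gene.

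Values that changed sign were Ogdh at -0.10 with the minimum, -0.34 with background subtracted and -0.42 with both, the remaining cycle subunits' median at -0.039 with both, and the cytosolic counterparts' median at -0.014 with background subtracted. The highest enzyme level in WT was 4.88 times the lowest with background subtracted, against 4.44. For single genes and list medians, 743 alternative values kept their direction and side of the threshold, 185 no longer passed it, 26 newly passed it and 78 moved. Depth and background limit WT most, where a count of 0 allows up to 0.383 CPM in LT-HSCs.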
